A study of Mus musculus with 6 samples.

Results

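The matrix protease system was examined through 10 genes, 7 matrix metalloproteinases (Mmp2, Mmp3, Mmp9, Mmp10, Mmp12, Mmp13 and Mmp14) and 3 tissue inhibitors of metalloproteinases (Timp1, Timp2 and Timp3). They were taken by symbol from a table of 23494 genes, and all 10 had a row. The study compared mice given vehicle or recombinant MANF (rMANF; mesencephalic astrocyte-derived neurotrophic factor, a protein of the endoplasmic reticulum that cells can also release) while they carried B16F10 melanoma, a transplantable mouse tumour line. All 6 mice were wild-type C57BL/6 females with a B16F10 tumour in the flank. Once tumours averaged about 60 mm3, 3 of them received the vehicle phosphate-buffered saline and 3 received rMANF at 2 µg/kg, injected into the peritoneum every day. The labels name 8 mice per group and do not say how 3 were chosen, nor the age of the mice, and the column names of the vehicle libraries begin with IgG. Replicates are described as biological, read here as separate mice.

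The labelled tissue is heart, but several defining markers of heart muscle cells were near 0 and others were low. Atrial peptide Nppa reached at most 0.541 TPM (a relative abundance corrected for transcript length) and cardiac actin Actc1 at most 0.905 TPM in any library, whereas Gapdh stood at 4864 to 6047 TPM. Of the 9 of 12 cardiomyocyte markers with a row, which summed to 7.47 to 32.1 TPM per library, Tnnt2 (4.86 to 11.5 TPM), Tnni3 (1.12 to 6.11 TPM) and Myl2 (14.9 TPM in vehicle replicate 2, at most 1.15 TPM elsewhere) passed 1 TPM on average. Nppb, a natriuretic peptide gene outside that list, stood at 46.6 to 57.4 TPM in every library. The 3 of 8 melanocyte markers with a row summed to 7.44 to 12.6 TPM, nearly all of it Mitf (group means of 10.1 and 8.86 TPM), whereas Pmel averaged 0.155 and 0.0712 TPM. The groups are therefore called libraries labelled vehicle and rMANF, and all directions rest on those labels. TPM keeps no read number, so depth is unknown. Each SD is the spread between the libraries of a group, any counting noise included. Each SE is the limma standard error of a difference, with variances moderated over all tested genes.

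Matrix metalloproteinases are zinc-dependent endopeptidases that cut collagens, elastin, proteoglycans and many non-matrix proteins. Most are secreted as inactive proenzymes and are activated when another protease removes the propeptide. TIMPs occupy the active site of the mature enzymes, and Timp2 has a second role, since it links pro-Mmp2 to the membrane-anchored Mmp14, which then activates it. In damaged hearts and in tumours these enzymes come from fibroblasts, endothelial cells, macrophages, neutrophils and the tumour cells themselves. Transcript levels say nothing of whether the proenzymes were activated.

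Of the 10 genes 4 lie in the metalloproteinase cluster of chromosome 9, which also holds family genes that are not members. Mmp13 (7272514 to 7283331), Mmp12 (7344381 to 7369499), Mmp3 (7445822 to 7455975) and Mmp10 (7502352 to 7510240) span 237.7 kb and are transcribed from the same strand (GENCODE M21, GRCm38). Their upstream sequences are shown because the 3 genes with the clearest lower values below belong to this cluster. Each of the 3 also holds an AP-1 and a TATA box match near an annotated start. Each sequence is the 100 bases before the RefSeq start site (GRCm38.p6), 5′ to 3′, with matches to the AP-1 site TGANTCA and to the TATA box TATAAA in capitals. Both strands were searched, and the matches to the motifs do not overlap in these genes.
Mmp13 (chr9:7272414-7272513, plus strand): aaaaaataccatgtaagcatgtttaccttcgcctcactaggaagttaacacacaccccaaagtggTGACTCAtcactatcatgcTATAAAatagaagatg
Mmp12 (chr9:7347274-7347373, plus strand): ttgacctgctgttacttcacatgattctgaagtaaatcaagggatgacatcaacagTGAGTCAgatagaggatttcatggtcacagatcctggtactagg
Mmp3 (chr9:7445722-7445821, plus strand): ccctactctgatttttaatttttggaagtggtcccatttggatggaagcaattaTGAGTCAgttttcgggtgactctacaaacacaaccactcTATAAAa
Mmp10 (chr9:7502242-7502341, plus strand): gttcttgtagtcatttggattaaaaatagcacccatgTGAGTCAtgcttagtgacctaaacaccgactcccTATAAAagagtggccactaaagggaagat
The upstream sequences of the genes with higher values are shown for contrast.
Mmp14 (chr14:54431498-54431597, plus strand): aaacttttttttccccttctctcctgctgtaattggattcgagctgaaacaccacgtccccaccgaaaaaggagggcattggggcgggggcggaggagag
Timp2 (chr11:118355412-118355511, minus strand): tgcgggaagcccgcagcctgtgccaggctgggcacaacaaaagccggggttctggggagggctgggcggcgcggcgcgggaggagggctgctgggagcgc

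Within the window from 250 bases before to 50 bases after the start, promoters were matched for 8 of the 10 genes. An AP-1 match was present in 4 of these 8 (50.0%), namely the chromosome 9 genes, against 7.81% of 32851 RefSeq promoter windows. The same 4 held a TATA box, which 13.6% of all windows had. The AP-1 match began 35 bases before the start in Mmp13, 44 in Mmp12, 46 in Mmp3 and 63 in Mmp10. In Mmp12 the TATA match began 4 bases after the annotated start and so lies outside the printed stretch, and the other annotated Mmp12 start, not printed, held neither motif. Mmp14, Timp1, Timp2 and Timp3 held neither motif in this window, which says only that these letters are absent there. On chromosome 9 the non-member genes Mmp1a, Mmp1b, Mmp7 and Mmp20 also held both motifs. Their neighbour Mmp8 held only a TATA box and Mmp27 neither motif. A match is a string of letters, not evidence of binding.

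The inhibitor Timp2 and the membrane protease Mmp14 were the most abundant members in both groups. In the libraries labelled vehicle, mean levels ran from Timp2 (288 TPM) through Mmp14 (193), Timp1 (93.0), Mmp13 (48.8), Mmp12 (42.9), Mmp3 (21.5), Mmp2 (19.7), Timp3 (6.72) and Mmp9 (5.62) to Mmp10 (1.45). Several neighbours in that order overlapped between libraries: Timp2 with Mmp14, Mmp13 with Mmp12, Mmp12 with Mmp3, Mmp3 with Mmp2, Timp3 with Mmp9, and Mmp9 with Mmp10. With rMANF the mean of Mmp3 was 4.50 TPM, below Mmp2 (21.8) and Timp3 (5.30). Together the 10 transcripts made up 0.0637% to 0.0833% of a library.

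**Figure D1:**
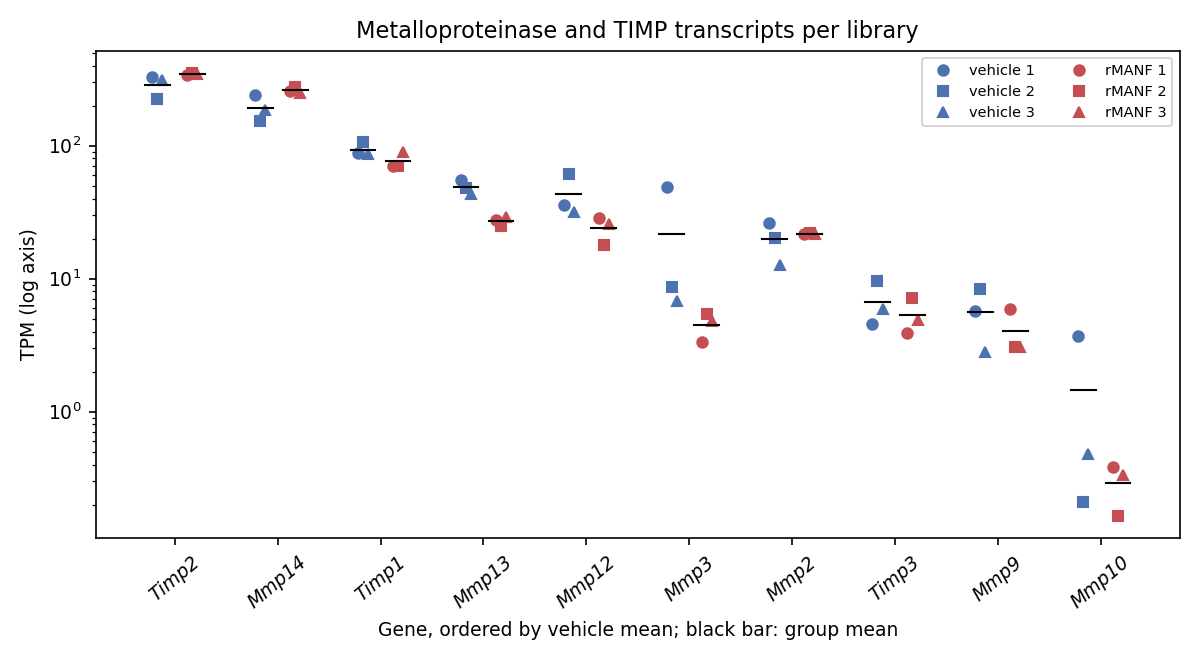
TPM of each of the 10 genes (log axis) in the 3 vehicle (blue) and 3 rMANF (red) libraries, with marker shape for the replicate and a black bar for the group mean. Mmp13 shows 2 separate clouds (43.0 to 55.4 against 24.6 to 28.8 TPM), and Mmp3 and Mmp10 each show 1 vehicle library, replicate 1, far above the other 5.

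Between groups, 3 secreted proteases of the chromosome 9 cluster lay lower with rMANF (Mmp13, Mmp12 and Mmp3), and the membrane protease Mmp14 and the inhibitor Timp2 lay higher, in each case with all 3 libraries of a group on 1 side of the other group. Differences are rMANF minus vehicle on log2(TPM + 1), a scale that understates changes of low genes. Of the 10 members 9 reached the mean of 1 TPM over all libraries that was required for testing, each with a mean above 1 TPM in both groups, and Mmp10 did not. In limma, with Benjamini-Hochberg adjustment over all 12865 tested genes, 0 of the 9 passed the threshold of 0.05, as did 0 of all tested genes (0%), although 2642 genes had an unadjusted p under 0.05. At that unadjusted level 3 of 9 members lay lower, against 6.63% of tested genes, and 1 of 9 lay higher, against 13.9%. At an adjusted p under 0.10, 1 of 9 was left (Mmp13), against 2.73% of tested genes. All differences below are therefore values, not calls. Groups did not overlap and lay lower for 3 of 9 members, against 9.02% of tested genes, and lay higher for 2 of 9, against 18.9%. The mean was lower with rMANF for 6 of 9 members, against 42.7% of tested genes, and the median difference was −0.28 over the 9 members (−0.07 without vehicle replicate 2) and 0.04 over all tested genes.

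**Figure D2:**
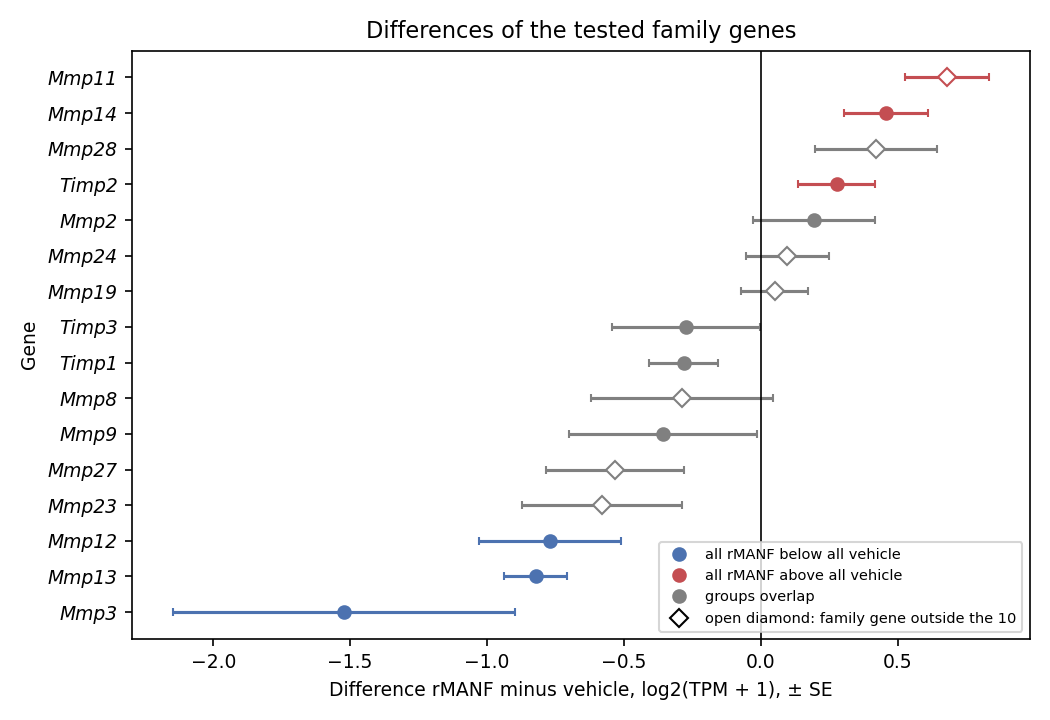
Difference between groups (x axis, log2 units, ± SE from limma, n = 3 each) for the family genes that passed the filter, with filled circles for members and open diamonds for other metalloproteinases. Mmp3 has the largest difference (−1.52) and also the widest error (0.62), and Mmp13 (−0.82) a narrow one (0.12).

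Mmp13, an interstitial collagenase that cuts fibrillar collagen, measured 55.4, 48.0 and 43.0 TPM in vehicle replicates 1, 2 and 3, against 27.8, 24.6 and 28.8 TPM in rMANF replicates 1, 2 and 3. The lowest vehicle library stood well above the highest rMANF library. The difference was −0.82 ± 0.12 (SE), with a limma adjusted p = 0.0893, the lowest adjusted value among the tested genes, which other genes shared. It lay between −0.91 and −0.69 under every alternative tried, with adjusted p from 0.0236 to 0.280, and passed the threshold only with library weights (0.0236).

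Mmp12, the macrophage elastase, measured 35.8, 61.4 and 31.6 TPM under vehicle against 28.7, 17.9 and 25.8 TPM under rMANF. Vehicle replicate 2 was the highest library, and the gap between the nearest libraries of the groups was small. The difference was −0.77 ± 0.26 (limma adjusted p = 0.164; 0.122 to 0.391 over the alternatives). Leaving out vehicle replicate 2 gave −0.49, and weighting the libraries gave −0.51. The 157 exon bases that Mmp12 shares with Mmp1b, on the other strand, cannot be assigned, because the library kit does not mark strand.

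The value of Mmp3, a stromelysin that cuts proteoglycans and activates other proenzymes, rested largely on 1 library. It measured 49.1, 8.68 and 6.81 TPM under vehicle against 3.31, 5.43 and 4.77 TPM under rMANF. Vehicle replicate 1 was 5.66 times the next highest library, although vehicle replicates 2 and 3 were also above all rMANF libraries. The difference was −1.52 ± 0.62 (limma adjusted p = 0.224; 0.108 to 0.421 over the alternatives) and −0.68 without vehicle replicate 1. Weighting the libraries, which lowers the influence of libraries with large residuals, gave −0.80.

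Mmp10, the other stromelysin of the cluster, stood at 3.67, 0.208 and 0.479 TPM under vehicle against 0.382, 0.164 and 0.332 TPM under rMANF. Vehicle replicate 1 was again the outlying library, at 7.66 times the next highest, and the groups overlapped. Mmp10 was below the filter and was not tested. The means of the other 2 vehicle libraries (0.344 TPM) and of the rMANF libraries (0.292 TPM) lay close together.

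Vehicle replicate 1 stood apart for other transcripts too. Serpinb2, the plasminogen activator inhibitor of macrophages, measured 10.1 TPM there and at most 2.46 TPM elsewhere. The neutrophil alarmin gene S100a9 measured 120 TPM against at most 9.50 TPM, and Lcn2, whose product forms a complex with Mmp9, 33.6 against at most 4.05 TPM; S100a9 and Lcn2 were picked after their values were seen. The 9 of 11 neutrophil markers with a row summed to 205 TPM in vehicle replicate 1. The sum was 33.5 and 21.1 TPM in the other vehicle libraries and 15.4 to 31.1 TPM under rMANF. Most of the 205 TPM was S100a8 (67.0 TPM) and S100a9 (120 TPM), so the sum largely repeats the S100a9 value. Of the 9 markers, 5 stayed under 1 TPM in every library, among them the granule genes Mpo and Elane. The part of these transcripts in the Mmp3 and Mmp10 values was not tested.

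**Figure D3:**
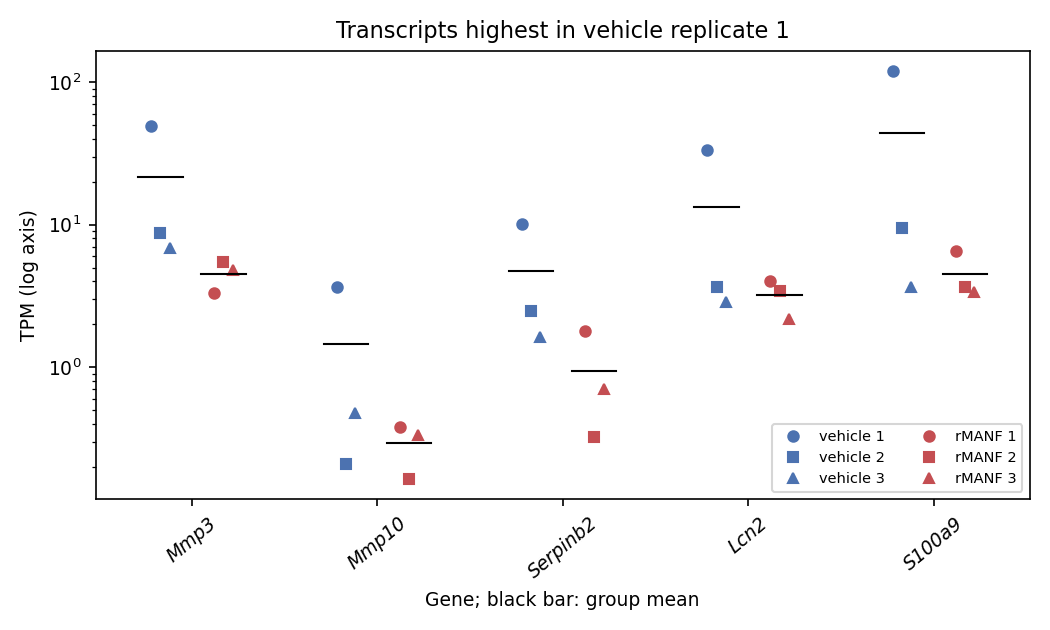
TPM (log axis) of Mmp3, Mmp10, Serpinb2, Lcn2 and S100a9 in each library, drawn as in the plot of all members. In all 5 genes vehicle replicate 1 (blue circle) is the highest library, from 4.12 times (Serpinb2) to 12.6 times (S100a9) the next one; the genes were chosen for this after their values were seen.

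The gelatinases, which digest denatured collagen and basement membrane collagen, did not separate the groups. Mmp2 measured 26.3, 20.2 and 12.7 TPM under vehicle against 21.7, 22.1 and 21.7 TPM under rMANF, so that vehicle libraries lay on either side of a tight rMANF group. Its difference was 0.19 ± 0.22 (limma adjusted p = 0.668; 0.0804 to 0.797 over the alternatives). Leaving out vehicle replicate 1 gave 0.42, leaving out vehicle replicate 3 gave −0.08 and library weights gave 0.57. Mmp9, the gelatinase of neutrophils and macrophages, measured 5.74, 8.30 and 2.81 TPM under vehicle against 5.88, 3.07 and 3.06 TPM under rMANF, with full overlap. The difference was −0.36 ± 0.34 (limma adjusted p = 0.601; 0.214 to 0.936 over the alternatives). It ranged from −0.71 without vehicle replicate 3 to −0.07 without vehicle replicate 2, and was −0.61, −0.23 and −0.23 without rMANF replicates 1, 2 and 3. With library weights its sign turned (0.15).

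Mmp14, the membrane-anchored protease that activates pro-Mmp2, measured 239, 152 and 186 TPM under vehicle against 257, 277 and 247 TPM under rMANF. All rMANF libraries were above all vehicle libraries, but vehicle replicate 1 lay close below rMANF replicate 3. The difference was 0.46 ± 0.15 (limma adjusted p = 0.163; 0.0346 to 0.381 over the alternatives, under 0.05 only with library weights). Without vehicle replicate 2, the lowest library and the one with the most skeletal muscle RNA, it was 0.30.

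Timp2, the inhibitor that also takes part in pro-Mmp2 activation, measured 326, 223 and 314 TPM under vehicle against 337, 352 and 343 TPM under rMANF. The rMANF libraries were tightly grouped (344 ± 7.34 TPM, SD, n = 3) and vehicle replicate 2 was far below the rest (288 ± 56.3 TPM for the group). The difference was 0.28 ± 0.14 (limma adjusted p = 0.310; 0.148 to 0.537 over the alternatives), and 0.10 without vehicle replicate 2. The ratio of Mmp14 to Timp2 was 0.734, 0.682 and 0.595 in the vehicle libraries and 0.763, 0.788 and 0.719 in the rMANF libraries, with overlap between groups.

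Timp1, the soluble inhibitor induced in inflammation, measured 87.2, 105 and 86.2 TPM under vehicle against 69.7, 70.3 and 89.3 TPM under rMANF. Only rMANF replicate 3 overlapped the vehicle libraries. The difference was −0.28 ± 0.13 (limma adjusted p = 0.258; 0.197 to 0.528 over the alternatives). Timp1 lies inside Syn1 on the opposite strand, but the 2 genes share 0 exon bases and Syn1 stood at only 2.57 to 3.85 TPM.

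Timp3, the matrix-bound inhibitor that also blocks Adam17, measured 4.58, 9.63 and 5.93 TPM under vehicle against 3.87, 7.11 and 4.91 TPM under rMANF. The groups overlapped and the difference was −0.27 ± 0.27 (limma adjusted p = 0.612; 0.290 to 0.980 over the alternatives), −0.48 without vehicle replicate 1, −0.47 without rMANF replicate 2, −0.10 without rMANF replicate 1 and −0.01 without vehicle replicate 2. Timp3 shares 1733 of its 8144 exon bases with Syn3, a synapsin gene on the other strand, and Syn3 measured 4.46, 10.1 and 5.87 TPM under vehicle against 3.28, 6.29 and 4.52 TPM under rMANF. The ratio of Syn3 to Timp3 lay between 0.847 and 1.05 in the 6 libraries. Without strand, reads on the shared stretch cannot be assigned to either gene, so the Timp3 level is uncertain to that extent.

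Summed over the 6 secreted proteases, the level was 140.1 ± 39.7 TPM under vehicle against 81.8 ± 7.56 TPM under rMANF (SD, n = 3 each). By library it was 176, 147 and 97.4 TPM against 87.7, 73.3 and 84.5 TPM, without overlap. The 3 TIMPs summed to 418, 338 and 406 TPM under vehicle against 411, 429 and 437 TPM under rMANF, with overlap. The secreted proteases stood at 0.421, 0.434 and 0.240 times the TIMP sum with vehicle and at 0.214, 0.171 and 0.193 times with rMANF. Mmp14 made up 58.1 ± 7.41% of the 7 metalloproteinase transcripts with vehicle and 76.0 ± 2.63% with rMANF. These sums are descriptions over genes chosen with their results known and have no test.

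**Figure D4:**
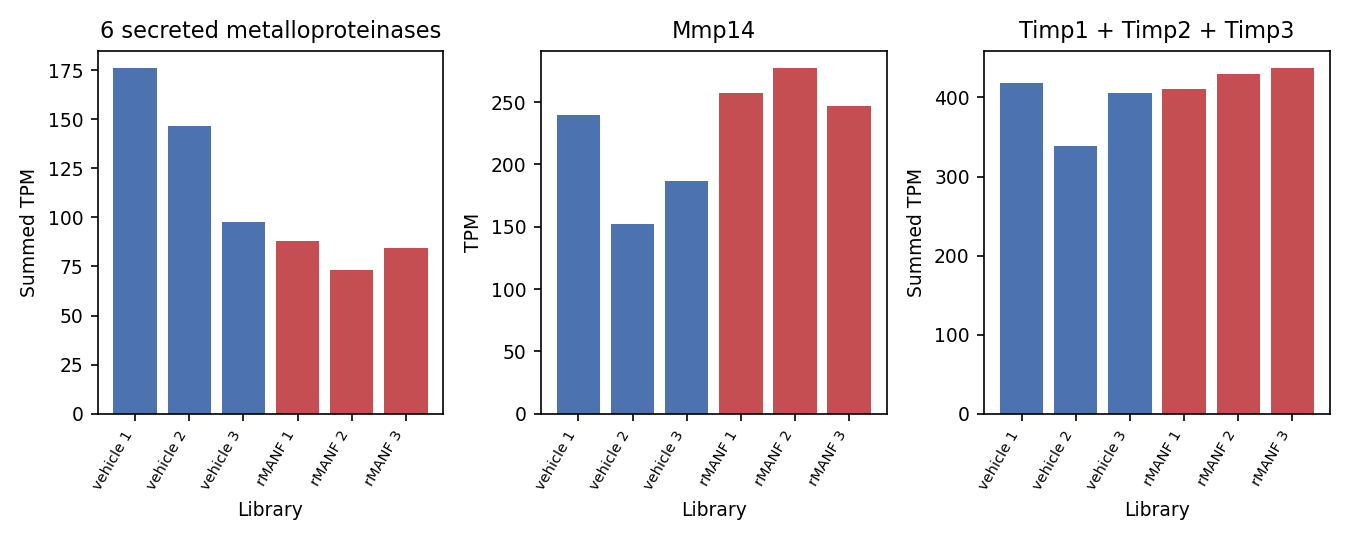
Summed TPM of the 6 secreted metalloproteinases (left), TPM of Mmp14 (middle) and summed TPM of the 3 TIMPs (right) in each vehicle (blue) and rMANF (red) library, 1 bar per library, all axes from 0. The secreted sum runs from 97.4 to 176 TPM under vehicle against from 73.3 to 87.7 TPM under rMANF.

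Base composition moved with direction among the members whose groups did not overlap. Those that lay lower have a low transcript GC content (Mmp12 41.2%, Mmp13 41.7%, Mmp3 45.9%). Those that lay higher have a high one (Mmp14 56.9%, Timp2 54.0%). Of the tested members with overlap, Mmp9 (54.1%, −0.36) and Timp1 (52.6%, −0.28) went against this split. Timp3 (47.3%, −0.27) and Mmp2 (54.1%, 0.19) followed it. Over all tested genes the median difference ran from −0.06 in the fifth of lowest GC content to 0.21 in the fifth of highest. With the GC trend of each library removed, an alternative chosen after seeing the data, Mmp13 stood at −0.72, Mmp3 at −1.47, Mmp12 at −0.67, Mmp14 at 0.32 and Timp2 at 0.21. The groups then still did not overlap for Mmp13 and Mmp3, and overlapped for Mmp12, Mmp14 and Timp2.

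Markers of several cell types also moved with the groups. Of all tested genes, 9.02% lay lower without overlap and 18.9% higher without overlap. The mean was lower for 42.7% of them and higher for 57.26%. All 16 macrophage markers lay lower with rMANF, 10 of them without overlap, and they summed to 2764 to 3321 TPM under vehicle against 1718 to 2350 TPM under rMANF. Of 10 tested fibroblast markers 7 lay lower and 3 higher, with sums of 362 to 508 against 291 to 380 TPM. All 14 skeletal muscle markers lay lower, 11 without overlap. Their sums were 127, 1374 and 30.9 TPM in vehicle replicates 1, 2 and 3 and at most 22.2 TPM under rMANF. Most of the 14 averaged under 1 TPM under rMANF and passed the filter only through the vehicle libraries. For those the lower direction was set by the filter and supports nothing. Without vehicle replicate 2 only 8 passed the filter. All 9 tested T and NK cell markers lay lower, 6 without overlap (median −0.99, and −0.64 without vehicle replicate 2), with sums of 42.8 to 108 against 19.8 to 37.9 TPM. Cd3d, among those 6, averaged 0.946 TPM under rMANF and passed the filter only through the vehicle libraries. Its lower mean was set by the filter and supports nothing. Of 10 endothelial markers 9 lay higher, but only 2 without overlap, with sums of 146 to 172 against 173 to 197 TPM. The nearest libraries of these sums almost touched, at 171.7 TPM (vehicle) and 172.6 TPM (rMANF). In bulk RNA, fewer cells of a type and less RNA per cell cannot be told apart, and the part of these cells in the differences of Mmp12, Mmp13, Mmp14 and Timp2 was not tested.

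Among the other metalloproteinases and Timp4, 13 of 17 listed genes had a row, 7 passed the filter and 0 passed limma's threshold. Mmp11, stromelysin 3, was the most abundant of them with rMANF, at 31.8, 31.1 and 32.9 TPM against 21.8, 14.96 and 22.9 TPM with vehicle. Its groups did not overlap, the difference was 0.68 ± 0.15 (limma adjusted p = 0.0986; 0.0397 to 0.285 over the alternatives, under 0.05 only with library weights), and its GC content is 56.5%. Mmp19, at 15.8 to 21.1 TPM, differed by 0.05 ± 0.12, and its sign turned with quantile normalization (−0.01), with library weights (−0.12) and without vehicle replicate 1 (−0.01) or 2 (−0.02). Mmp27, which like Mmp8 lies in the chromosome 9 cluster, measured 3.38, 2.23 and 4.28 TPM against 1.20, 2.34 and 2.37 TPM (−0.53 ± 0.25, and −0.33 without rMANF replicate 1). The neutrophil collagenase Mmp8 stood at 1.94, 1.32 and 0.534 TPM against 0.730, 1.49 and 0.332 TPM, Mmp23 differed by −0.58 ± 0.29, Mmp24 by 0.10 ± 0.15 (−0.06 with the GC trend removed) and Mmp28 by 0.42 ± 0.22 (0.21 with it removed). Mmp8 and Mmp23 averaged 1.27 and 1.66 TPM under vehicle and 0.852 and 0.734 TPM under rMANF. Both passed the filter only through the vehicle libraries, so their lower means were set by the filter and support nothing. The difference of Mmp23 was −1.01 with a pseudocount of 0.1 TPM and −0.21 with 5 TPM. Mmp15 and Mmp25 were under the filter with group means of 0.569 to 0.930 TPM, and Mmp1a, Mmp16, Mmp17 and Timp4 reached at most 0.0895 TPM.

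Proteins that activate, dock or clear the proteases showed no common direction. Of 10 tested genes 7 lay higher, against 57.26% of all tested genes, and 3 lower. Their median was 0.12, and 0 passed limma's threshold. That median became 0.01 when vehicle replicate 2 was left out, 0.21 when vehicle replicate 1 was, and 0.06 with the GC trend removed, where 6 lay higher and 4 lower. Furin, the convertase that activates Mmp14 inside the cell, measured 28.3, 33.7 and 36.0 TPM under vehicle against 49.6, 48.6 and 44.7 TPM under rMANF, without overlap (0.53 ± 0.11, limma adjusted p = 0.0893). Lrp1, the endocytic receptor that clears several metalloproteinases, measured 31.9 ± 4.34 and 44.2 ± 1.38 TPM (SD, n = 3 each; 0.47 ± 0.11). Plau, urokinase, which makes plasmin, lay the other way at 58.0, 64.1 and 60.8 TPM against 52.1, 44.8 and 48.5 TPM (−0.33 ± 0.09, limma adjusted p = 0.123). Its groups did not overlap either. With the GC trend removed Furin stood at 0.37, Lrp1 at 0.31 and Plau at −0.31. Their transcript GC contents are 57.7%, 57.4% and 49.5%, in that order.

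Of 5 tested inhibitors other than the TIMPs 4 lay lower, against 42.7% of all tested genes, and 1 higher. Their median was −0.55, and 0 passed the threshold. Tfpi2, a serine protease inhibitor of the matrix, measured 1.90, 2.65 and 1.60 TPM under vehicle against 0.757, 1.26 and 1.09 TPM under rMANF, without overlap. Serpinb2 differed by −1.33 ± 0.53 and Serpine2, a thrombin and urokinase inhibitor, by −0.55 ± 0.25, both with overlap. Serpinb2 stood at −0.71 without vehicle replicate 1, and Serpine2 at −0.35 without vehicle replicate 2 or without rMANF replicate 3. Serpinb2 averaged 0.940 TPM under rMANF and passed the filter only through the vehicle libraries. Its lower mean, counted among the 4, was set by the filter and supports nothing. Reck, a membrane inhibitor of metalloproteinases, was under the filter at a mean of 0.410 and 0.263 TPM.

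Of 13 tested matrix genes 7 lay lower, against 42.7% of all tested genes, and 6 higher (median −0.04), and 0 passed. The sign of that median turned without vehicle replicate 1 (0.18) or 2 (0.10), without rMANF replicate 1 (0.08) or 3 (0.04), with library weights (0.11) and with the GC trend removed (0.02), each with 6 lower and 7 higher. Dcn, the small proteoglycan decorin, measured 41.5, 40.9 and 24.3 TPM under vehicle against 13.5, 18.7 and 10.2 TPM under rMANF (−1.27 ± 0.26, limma adjusted p = 0.0893). The fibrillar collagen gene Col1a2 lay lower too, at 57.3 ± 15.5 against 30.1 ± 9.96 TPM (SD, n = 3 each; −0.92 ± 0.26). The basement membrane collagen gene Col4a2 lay higher, at 59.3, 39.9 and 58.4 TPM against 77.0, 86.3 and 76.7 TPM (0.62 ± 0.15, limma adjusted p = 0.111). With the GC trend removed its difference was 0.38. Dcn and Col1a2 are also fibroblast markers. None of these 3 genes had overlapping groups, and their transcript GC contents are 40.1%, 46.8% and 60.5%.

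Among 15 regulators that act on metalloproteinase promoters, 14 lay higher with rMANF, against 57.26% of all tested genes, and 1 lower. Their median was 0.20, and 0 passed limma's threshold. With the GC trend removed 9 lay higher, against 56.84% of all tested genes, and 6 lower (median 0.12). Without vehicle replicate 2 or rMANF replicate 1 the split was 12 to 3. All 7 AP-1 subunit genes lay higher, Junb at 131, 133 and 140.3 TPM under vehicle against 171, 159 and 151 TPM under rMANF and Jund at 211, 250.4 and 253 TPM against 316, 278 and 283 TPM. With the GC trend removed 4 of the 7 lay higher and 3 lower, and Junb and Jund turned to −0.04 and −0.12. Without vehicle replicate 2 or rMANF replicate 1, 6 of the 7 lay higher and 1 lower. Etv4, an ETS factor, differed by 0.47 ± 0.10 (limma adjusted p = 0.0947) and by 0.25 with the GC trend removed.

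Of 8 tested inducing cytokines 6 lay lower, against 42.7% of all tested genes, and 2 higher. Their median was −0.19, and 0 passed. Leaving out vehicle replicate 1 moved the median to −0.08 and leaving out vehicle replicate 3 to −0.38, and library weights gave 4 lower and 4 higher (median 0.01). Tnf measured 11.03, 13.6 and 11.2 TPM under vehicle against 8.63, 6.89 and 6.73 TPM under rMANF, without overlap (−0.62 ± 0.13, limma adjusted p = 0.0947). Osm, oncostatin M, measured 4.07, 1.95 and 1.07 TPM against 1.06, 0.550 and 0.438 TPM, its nearest libraries almost touching. Its difference was −0.92 ± 0.34, and −0.57 without vehicle replicate 1. Osm averaged 0.683 TPM under rMANF and passed the filter only through the vehicle libraries. Its lower mean, counted among the 6, was set by the filter and supports nothing. Tgfb1, which raises Timp1 and collagen genes in fibroblasts, lay higher at 111, 112 and 131 TPM against 153, 146 and 151 TPM (0.35 ± 0.09), without overlap. With the GC trend removed its difference was 0.23.

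**Figure D5:**
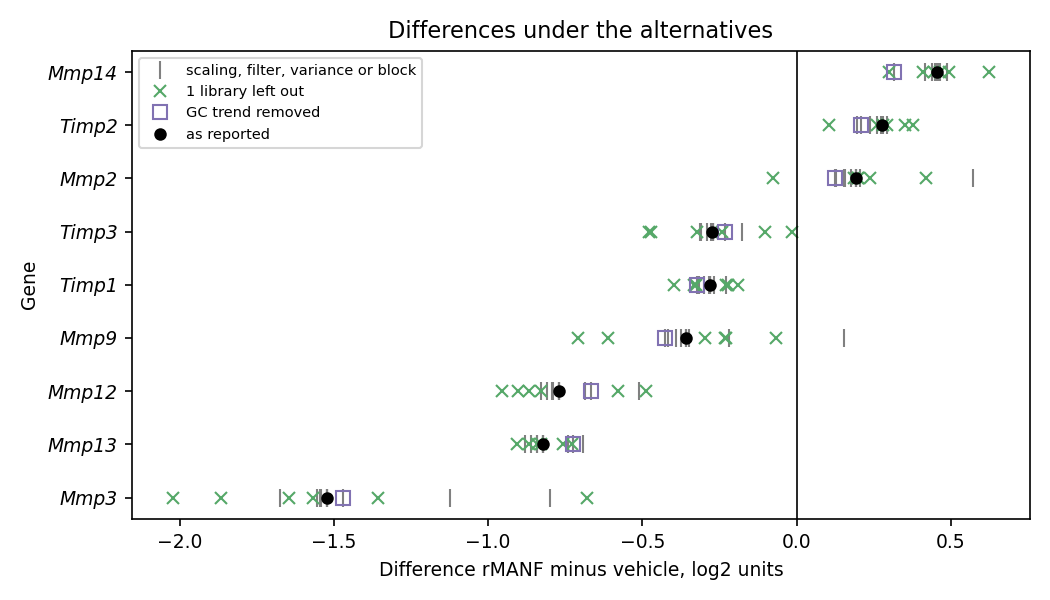
Difference between groups of the 9 tested members (x axis, log2 units) as reported (black), with 1 library left out (green crosses), with the GC trend removed (purple squares) and under the other alternatives (grey bars). Mmp13, Mmp12 and Mmp3 stay below 0 and Mmp14 and Timp2 above 0 throughout, whereas Mmp2 and Mmp9 cross 0.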

How the data were processed

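Libraries were made from total RNA with the Nextera XT kit, per the labels' protocols, a kit without strand marking. The submitters' processing notes name Salmon 0.14.1, HTSeq 0.11.0, cutadapt, fastp and the build mm10. Their order, the gene annotation and any filter: not given in the sources used here. What the authors deposited is 1 table of log2 TPM by gene and library; its values of −9 were read as 0 TPM. The depth per library is unknown, so no counting interval was computed.

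TPM were rebuilt and tested as log2(TPM + 1) in limma 3.58.1 (R 4.3.3): 3 against 3 libraries, no covariate, two-sided, variances moderated along a trend in mean level, only genes averaging 1 TPM or more, Benjamini-Hochberg adjustment over all 12865 tested genes, threshold 0.05. The fit was tested on simulated data. The members, gene lists and tests were chosen with earlier results of these data known. Named were all members, the other family genes, genes overlapping a member, the 3 genes of smallest p in each pathway list and the 3 genes nearest in profile to the member of smallest p; cell type markers were fixed as lists. Other names are marked or serve as tissue checks. Alternatives changed the pseudocount (0.1 or 5 TPM), the filter (none, or 5 TPM), the scaling (3 ways), the mean trend (none), library weights, a block for the replicate number, the libraries (each left out) and the threshold (0.10); GC trend removal (loess, span 0.5) and counts of members without overlap under other settings were added after seeing the data. Transcript GC content (length-weighted over GENCODE M21 transcripts) was found for 99.71% of tested genes and all 10 members.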

Additional observations from a re-analysis of the deposited data

How the results depend on the processing

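Of 161 values of the 9 tested members under alternatives, 2 turned direction (Mmp2 without vehicle replicate 3, with −0.076 to 0.42 over the libraries left out; Mmp9 with library weights, 0.15), and 2 passed the threshold, both with library weights (Mmp13, adjusted p = 0.0236; Mmp14, adjusted p = 0.0346). Library weights called 737 genes and 2 members; a threshold of 0.10 called 351 genes and 1 member, Mmp13. The replicate block called 3 genes and 0 members; the numbers 1 to 3 are not stated to pair mice, and deviations of same-numbered libraries correlated at −0.07, 0.03 and 0.05. GC trend removal called 1 gene, and 0 with the block. Leaving out a library called 0 to 18 genes (18 without vehicle replicate 1, 2 without rMANF replicate 1) and 0 members. With a library left out, members without overlap numbered 3 to 4 lower and 2 to 3 higher. The shares of all genes tested there were 10.6% to 15% and 20.7% to 32.2%. Mmp2 joined without vehicle replicate 1, Mmp10 without vehicle replicate 2 and Timp1 without rMANF replicate 3. Without vehicle replicate 2, Mmp10 passed the filter only through vehicle replicate 1 (3.67 TPM), so its place among them supports nothing. Members without overlap numbered 3 and 2 under the 3 scalings (10.1% to 13.2% and 16.6% to 17.6% of all genes). They numbered 2 and 0 with the GC trend removed (10.4% and 17.7%). The members' median was −0.07 without vehicle replicate 2. Other turns of direction were Mmp8 with library weights (0.052), Mmp24 with library weights (−0.0030) and with GC trend removal, alone or with the block (−0.056), Mmp19 (−0.0057 with quantile normalization, −0.12 under weighting, −0.0086 without vehicle replicate 1 and −0.019 to 0.18 over all libraries left out), Cep295nl, which lies within Timp2, without rMANF replicate 1 (−0.027 to 0.20 over the libraries left out), and Syn1 without vehicle replicate 2 (−0.041 to 0.18 over the libraries left out), without rMANF replicate 1 (−0.03) and with GC trend removal, alone or with the block (−0.11). With that removal, alone or with the block, Junb (−0.045) and Jund (−0.12) turned too. The cause was not tested. Without read numbers, the precision of the low genes Mmp10, Mmp9 and Timp3 cannot be stated beyond the spread between mice.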

Other observations

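Proteases of the ADAM and ADAMTS families are relatives of the metalloproteinases that shed membrane proteins or cut proteoglycans. Of 12 tested genes 7 lay higher, against 57.26% of all tested genes, and 5 lower (median 0.10), and 0 passed limma's threshold. The median was 0.05 without vehicle replicate 2 and 0.03 without rMANF replicate 2. Adamts7, which cuts cartilage matrix proteins, measured 20.2, 16.2 and 21.6 TPM under vehicle against 28.6, 29.9 and 32.4 TPM under rMANF (0.63 ± 0.12, limma adjusted p = 0.0893). Adamts10, which acts on fibrillin microfibrils, lay the other way at 3.87, 4.08 and 5.24 TPM against 3.27, 3.56 and 2.91 TPM. Neither had overlapping groups. Adam15 differed by 0.21 ± 0.11, by 0.10 without vehicle replicate 1, by 0.07 with library weights and by 0.01 with the GC trend removed. Adam19, among the lower genes, averaged 1.15 TPM under vehicle and 0.872 TPM under rMANF. It passed the filter only through the vehicle libraries, so its lower mean supports nothing.

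The 3 tested genes whose profile over the 6 libraries was nearest to that of Mmp13 were Ucn2, the peptide hormone urocortin 2, at a root mean square distance of 0.107 log2 units, the ribonuclease gene Rnase4 (0.120) and Clec4n (0.126), the gene of a lectin receptor of myeloid cells. Clec4n measured 47.4, 48.7 and 45.0 TPM under vehicle against 29.7, 27.9 and 27.3 TPM under rMANF, Rnase4 38.8, 30.4 and 27.8 against 20.5, 20.1 and 20.0 TPM, and Ucn2 2.73, 2.69 and 1.78 against 1.09, 0.818 and 0.830 TPM. They were picked from 12865 genes by this distance alone, so their likeness is a description. Ucn2 averaged 0.913 TPM under rMANF and passed the filter only through the vehicle libraries, so its lower mean supports nothing. Its difference was −1.29 with a pseudocount of 0.1 TPM and −0.32 with 5 TPM, against −0.84 and −0.74 for Mmp13. The nearness of Ucn2 to Mmp13 thus holds for the pseudocount used, and its distance under the others was not computed.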
